A study of Mus musculus with 9 samples.

Results

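Replication-dependent histone genes encode the histones H1, H2A, H2B, H3 and H4 that package newly copied DNA. They were taken as all genes whose symbol begins with Hist1h, Hist2h, Hist3h or Hist4h, and 41 of the 19769 genes in the RNA table met this rule. The set held 5 genes for H1, the linker histone, 6 for H2A, 14 for H2B, 8 for H3 and 8 for H4. By position, 36 lay on chromosome 13, 4 on chromosome 3 and 1 on chromosome 11. The annotation used (GENCODE M21) calls 40 of them protein-coding and 1, Hist1h2al, a processed pseudogene, and it names 29 further genes of the same form that are not analysed here.

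RNA came from primary mouse embryonic fibroblasts (MEFs) of mid-gestation embryos homozygous for a Myc-Egfp fusion at the endogenous locus, which both groups carried. All cells had been kept for 6 h in 20 µM MG-132, which blocks the proteasome, and were then sorted by GFP fluorescence into low-MYC and high-MYC cells, and were seeded overnight after the sort. Each group had 2 libraries, and these were technical replicates, so the p-values measure the spread between libraries, which is technical, and not that between cultures. Chromatin was probed by TACh-seq, in which a nuclease cuts accessible DNA, in WT MEFs and in KOKD MEFs, which lack Fubp1 and had Fubp2 knocked down by siRNA. The 166 peaks in the FUBP1 ChIP-seq table used here all lay on 1 chromosome that held 0 of these genes, so this table gives no value for them, and peaks elsewhere are not analysed here.

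Most histone mRNA is made in S phase, from clustered genes with few or no introns, and the transcription factor NPAT gathers at these clusters. The mRNA does not usually end in a poly(A) tail. It ends a few bases after a conserved stem-loop that is bound by SLBP, the stem-loop binding protein, and it is destroyed when DNA replication stops. Some of the genes also have longer annotated transcripts that run past the stem-loop and can be polyadenylated. The RNA libraries were made with a kit that captures poly(A) tails, so the values describe the RNA of each gene that such a kit retains.

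The stem-loop was searched for in the reference genome (GRCm38.p6, the same assembly as mm10) as a perfect hairpin with a stem of 6 bases that opens with GG and closes with CC, and a loop of 4 bases, in the 100 bases after the stop codon. Of the 40 genes with an annotated stop codon, 39 (97.5%) had it, against 63 of 21575 other protein-coding genes (0.292%). It began 25 to 47 bases after the stop codon, with a median of 32. The exception was Hist2h2be, an H2B gene on chromosome 3. The hairpins of the highest member of each class, and of 3 members with other stems or loops, are shown because they carry the feature that sets these genes apart. Capitals mark the stem and lower case the loop and flanks, written 5′ to 3′ on the transcribed strand with T for U.
Hist1h1c: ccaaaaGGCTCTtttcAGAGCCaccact
Hist3h2a: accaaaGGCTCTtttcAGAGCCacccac
Hist1h2bc: tccaaaGGCTCTtttcAGAGCCacccac
Hist2h3c2: cacaaaGGCTCTtttcAGAGCCaccaca
Hist1h4i: cttaaaGGCCCTttttAGGGCCaccaca
Hist1h3c: aaaaaaGGCTCTtttaAGAGCCacctaa
Hist1h4a: accaaaGGCCCTtctcAGGGCCgcccac
Hist1h4j: cctaaaGGTCCTtttcAGGACCaccaca

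In that order the sites lie at chr13:23739506-23739533 (plus strand), chr11:58955166-58955193 (plus), chr13:23684641-23684668 (plus), chr3:96238479-96238506 (minus), chr13:22040960-22040987 (minus), chr13:23745041-23745068 (minus), chr13:23760794-23760821 (minus) and chr13:21735431-21735458 (plus). Each lies after the coding sequence and, other than at Hist1h2bc, within the annotated transcript. The Hist1h2bc transcript has 2 exons, and whether its site lies in an exon was not checked. The hairpin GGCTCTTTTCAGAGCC stood in 25 of the 39 genes and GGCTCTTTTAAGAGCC in 6, all of H1, H2A, H2B or H3. The 8 H4 genes used other stems: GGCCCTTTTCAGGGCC in 4, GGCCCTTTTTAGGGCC in 2, and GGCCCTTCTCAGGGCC and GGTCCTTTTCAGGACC in 1 each. The list of histone variants, whose genes are expressed outside S phase as well, held 13 genes. Among the 12 that were searched, which leave out H3f3c, only H2afx had such a hairpin within 100 bases. H2afx is known to give rise to both kinds of mRNA end.

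The annotated transcript used for each gene ended at least 100 bases past the hairpin in 20 genes and nearer, or before it, in 19. Where annotation tags did not decide, the transcript with the fewest exons, and then the shortest, was used. Hist1h2bq and Hist1h2br, both among the 19, have 3 annotated transcripts each and gene ends beyond the hairpin. Their place among the 19 may depend on that choice. The 4 members with the highest RNA levels, Hist1h1c, Hist3h2a, Hist1h2bc and Hist1h4i, were all among the 20, with 840, 1643, 692 and 330 annotated bases beyond the hairpin. The 692 of Hist1h2bc, which has 2 exons, assumes that its hairpin lies in an exon. The median level was nonetheless close in the longer and the shorter group, 0.128 and 0.105 in spike-in-normalized FPK, the unit defined in the next paragraph. These levels are per kilobase of annotated transcript, so a longer annotated end lowers the level that the same reads give. The 2 medians are therefore no comparison of read numbers. Hist1h1d had 4884 bases beyond the hairpin and a mean level of 0.0744. Its annotated transcript of 7425 bases held about 150.5 low-MYC and 147.9 high-MYC reads, estimated as described further on. These are descriptions of the annotation, since the reads are not assigned to positions within a gene here.

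Levels are given as spike-in-normalized FPK, which is fragments per kilobase of transcript divided by a score of synthetic RNAs added in proportion to the number of cells. They are therefore per length and per cell, for the RNA that the poly(A) kit retains. Set against genes whose mRNA ends in a poly(A) tail, they do not compare total mRNA. In these bulk samples, fewer cells that express a gene and less RNA per cell cannot be told apart. Reads shared by near-identical genes were split between them by the quantification, so the value of any member that has a close copy is uncertain.

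Most of the histone genes had very low levels in this poly(A)-selected RNA. Over the 4 libraries, 4 of 41 had a mean of at least 1, 24 reached the minimum of 0.1 set for testing, and 17 did not. The members below that minimum had means between 0.0204 (Hist1h4j) and 0.0865 (Hist1h1a). The 24 tested were 3 of the H1, 3 of the H2A, 9 of the H2B, 4 of the H3 and 5 of the H4 genes. Summed over all 41 members, the level was 12.8 and 13.9 in the low-MYC libraries and 34.3 and 34.4 in the high-MYC libraries. The 12 histone variants with an RNA value, which include H3f3c but not H2afb1, together had 6.44 times this level in low-MYC and 5.67 times in high-MYC cells. They were led by H2afz with 28.6 and 30.0 in low-MYC and 61.5 and 67.1 in high-MYC cells. This compares poly(A)-selected RNA and not all mRNA of these genes.

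**Figure D1:**
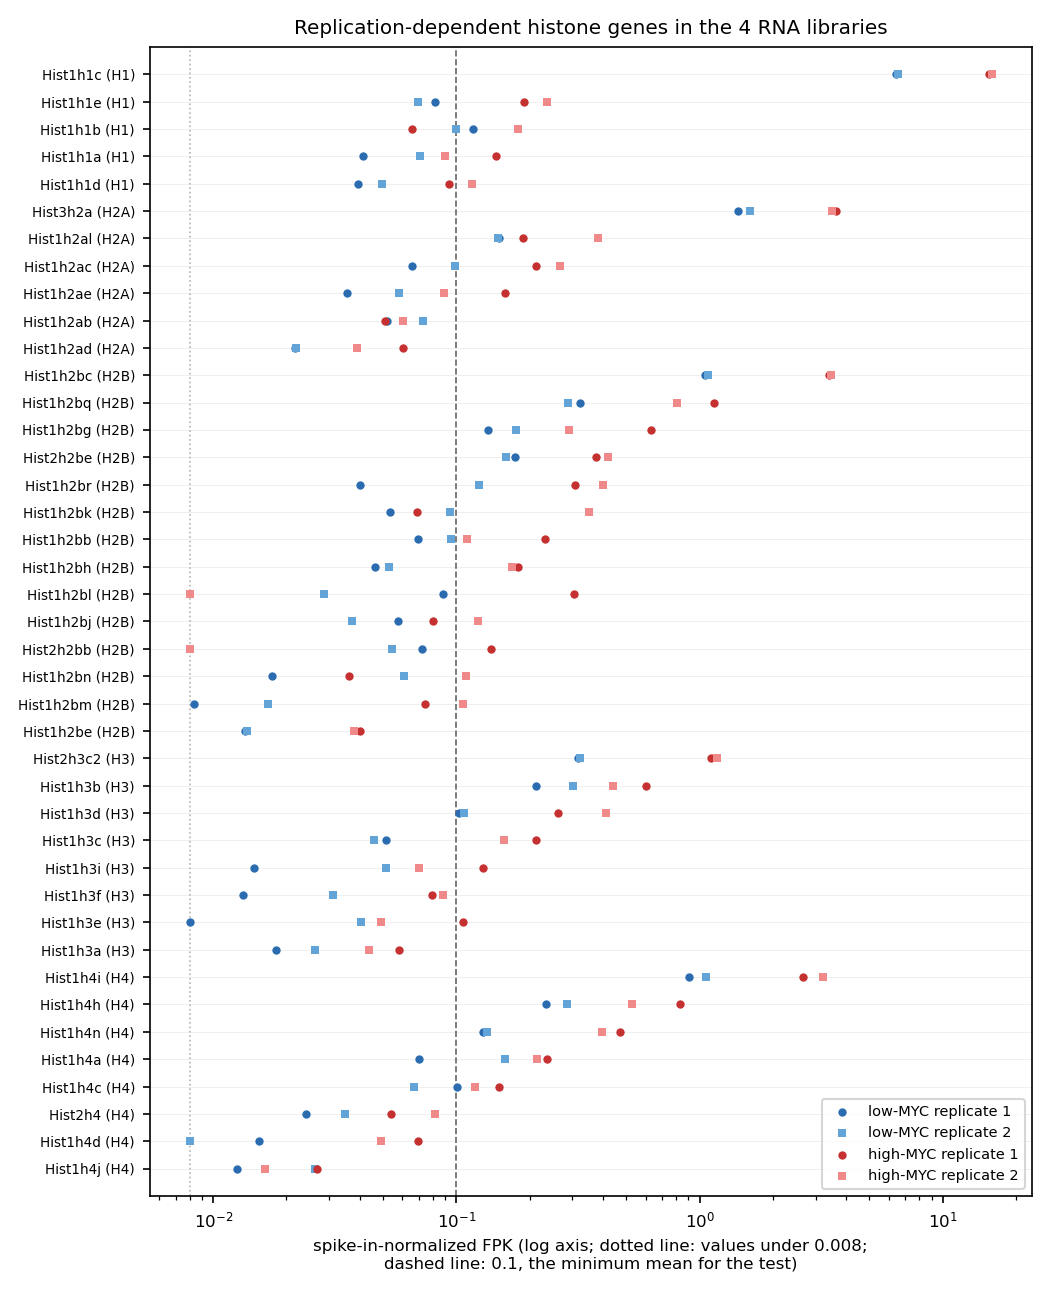
Spike-in-normalized FPK of each of the 41 histone genes in each of the 4 RNA libraries, on a log axis, grouped by class and ordered by mean; values under 0.008 are drawn on the dotted line. Only Hist1h1c, Hist3h2a, Hist1h2bc and Hist1h4i have means of at least 1, and 34 of 41 genes have both high-MYC points to the right of both low-MYC points.

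The number of reads behind these values was estimated from the lowest values. In genes with 1 annotated transcript they cluster at multiples of a fixed step, and between 41.6% and 42.7% of values under 8 reads lay within 0.1 reads of a whole number, against the 20% that values without steps would give. A read per kilobase was worth 0.00437 in both low-MYC libraries, and 0.00983 and 0.0111 in the first and second high-MYC library. The estimated reads on 5161 such genes were 3729845 and 3990101 in the low-MYC and 3630918 and 3543334 in the high-MYC libraries. Of the 55 values of the histone genes themselves under 8 reads, 29.1% were whole by the same measure, so their read numbers are approximate. Intervals of ratios are exact 95% intervals from these reads and cover counting error only.

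To ask how the histone genes differ between low-MYC and high-MYC cells, log2(normalized FPK + 0.1) was compared with limma for the 11870 genes that reached the minimum, with Benjamini-Hochberg adjustment over all of them, and a gene was called at an adjusted p under 0.01. Of the 24 histone genes tested, 16 were higher in high-MYC cells, 10 of them at least 2-fold, and 0 were lower. Over all genes tested 97.1% were higher, 55.1% were higher by at least 2-fold and 0.0253% were lower. The 8 histone genes not called had means between 0.105 and 0.308, and what part low levels play in their calls was not tested. The median log2 fold change of the 24 was 0.92, beside 1.03 over all genes tested. The pseudocount makes the fold change of weakly expressed genes smaller than it is, and the order of these medians turned with the pseudocount: with 0.01 in place of 0.1 they were 1.35 for the histone genes and 1.15 for all genes. As a plain ratio of group means, the median was 2.83 over the 24 histone genes and 2.26 over all genes tested.

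Because nearly every gene was higher on the spike-in scale, the same fit was run after each library had been set to the same median, which shows which members differ from the shift of the median gene. In that fit 2 of the 24, Hist2h3c2 and Hist1h2bc, were higher at an adjusted p under 0.01 and 0 were lower, with 1.76% of all genes higher and 0.531% lower. The median log2 fold change was 0.16 for the histone genes and -0.0039 for all genes. Leaving out any of the 4 libraries left 0 of the histone genes called relative to the median gene, and so did the fit without the filter on low values. Over all genes those fits called 0 to 10 of 11870 and 63 of 19769, so the 0 is no result about the histone genes.

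Regardless of the test, 34 of 41 members had both high-MYC values above both low-MYC values on the spike-in scale, and 7 overlapped, beside 92.5% of all genes in the table without overlap. Among the 17 members under the minimum, 13 did not overlap, beside 82.7% of all genes under it. The 7 whose groups overlapped were Hist1h1b, Hist1h2ab, Hist1h2bk, Hist1h2bl, Hist1h2bn, Hist1h4j and Hist2h2bb.

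**Figure D2:**
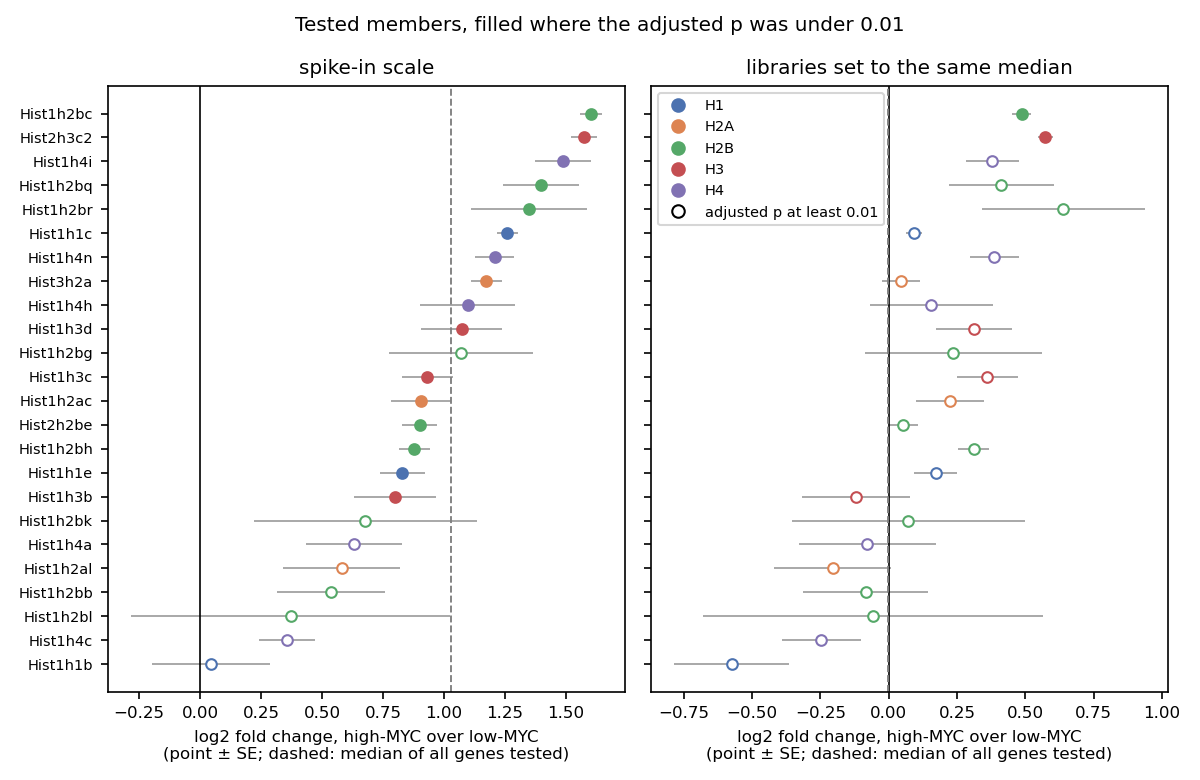
Log2 fold change of high-MYC over low-MYC cells with its standard error for the 24 tested histone genes, on the spike-in scale (left) and with all libraries set to the same median (right); filled points have an adjusted p under 0.01 and the dashed line is the median of all genes tested. On the left 16 points are filled, from 0.80 for Hist1h3b to 1.60 for Hist1h2bc, and on the right only Hist1h2bc and Hist2h3c2 are.

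Levels were also summed by class. Members differ in length and 29 annotated genes of the same form have no value here, so these sums too depend on how reads of near-identical genes were split. The H1 sum was 6.69 and 6.87 in low-MYC and 15.9 and 16.6 in high-MYC libraries, a ratio of means of 2.40. The H2A sum was 1.77 and 2.02 against 4.30 and 4.35, a ratio of 2.29. For H2B it was 2.15 and 2.29 against 7.03 and 6.40, a ratio of 3.03. In every class both high-MYC libraries lay above both low-MYC libraries. The H3 sum was the lowest, with 0.736 and 0.925 in low-MYC and 2.56 and 2.44 in high-MYC libraries, a ratio of 3.01. For H4 the values were 1.49 and 1.77 against 4.49 and 4.63, a ratio of 2.80. These ratios are given without a test, and that of H3 ranged from 2.70 to 3.40 when each library in turn was left out.

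The sums rested on few genes. Hist1h1c made up 96.3% of the H1 sum, Hist3h2a 82.1% of the H2A sum, Hist1h4i 63.3% of the H4 sum, Hist1h2bc 50.5% of the H2B sum and Hist2h3c2 43.9% of the H3 sum. Without these highest members the ratios were 1.96 for H1, 2.08 for H2A, 2.85 for H2B, 2.65 for H3 and 2.51 for H4. By chromosome, the ratio was 2.59 for the 36 members on chromosome 13, 2.91 for the 4 on chromosome 3 and 2.33 for Hist3h2a, the member on chromosome 11. With all libraries set to the same median the class ratios were 1.06 for H1, 1.01 for H2A, 1.34 for H2B, 1.33 for H3 and 1.24 for H4.

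**Figure D3:**
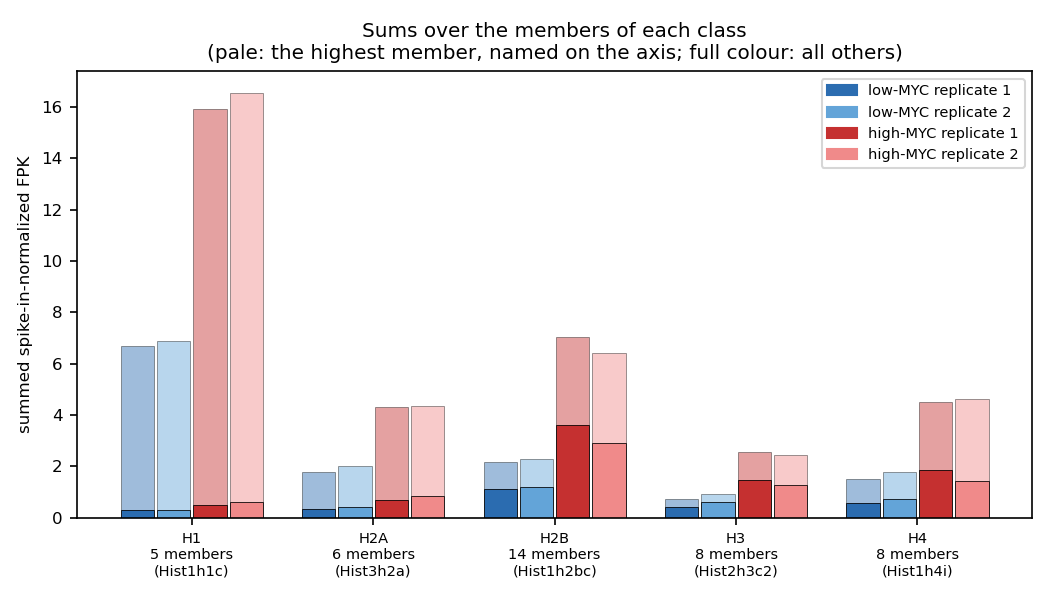
Summed spike-in-normalized FPK of the members of each histone class in each RNA library, with the highest member in pale colour above all others in full colour. H1 has the highest bars, almost wholly Hist1h1c, and in all 5 classes both high-MYC bars exceed both low-MYC bars.

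Linker histones bind the DNA that enters and leaves the nucleosome. Hist1h1c, which encodes histone H1.2, lies at chr13:23738808-23740367 on the plus strand and had by far the highest level of the set. It measured 6.41 and 6.58 in low-MYC and 15.4 and 15.9 in high-MYC libraries, which placed it 870th and 821st among all genes by group mean. Both high-MYC libraries were well above both low-MYC libraries, and the replicates of each group lay close together. Its log2 fold change was 1.26 (standard error, SE, 0.0425, adjusted p = 1.04e-05 in limma), and the ratio of means was 2.42 (counting interval 2.32 to 2.51). Relative to the median gene its log2 fold change was 0.09 and did not pass the test (adjusted p = 0.119 from limma).

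Hist1h1e measured 0.0820 and 0.0696 in low-MYC and 0.190 and 0.236 in high-MYC libraries and was called higher, with a log2 fold change of 0.83. Hist1h1b, which encodes H1.5, was the tested member with the smallest fold change. Its values were 0.117 and 0.0999 in low-MYC and 0.0657 and 0.178 in high-MYC libraries. The lower high-MYC replicate lay under both low-MYC libraries, so the groups overlapped, and the log2 fold change of 0.04 (SE 0.243, adjusted p = 0.864 in limma) was above that of only 0.177% of all genes tested. Leaving out either high-MYC library made it a call, in opposite directions: -0.33 (adjusted p = 0.00846 in limma) without replicate 2, and 0.42 (adjusted p = 0.00359) without replicate 1. The counting interval of its ratio, 0.579 to 2.0, rests on about 36.9 low-MYC and 16.9 high-MYC reads. Hist1h1a and Hist1h1d were under the minimum, with means of 0.0865 and 0.0744.

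H2A and H2B form dimers in the nucleosome, and several of their genes stand head to head. Hist3h2a is alone among the members on chromosome 11, at chr11:58954685-58956830 (plus strand). It had 1.44 and 1.62 in low-MYC and 3.63 and 3.51 in high-MYC libraries, without overlap between the groups. The log2 fold change was 1.17 (SE 0.0649, adjusted p = 1.75e-05 in limma), and the ratio of means was 2.33 with a counting interval of 2.17 to 2.51, which holds the median ratio of all genes. Hist1h2ac, with 0.0655 and 0.0984 against 0.213 and 0.268, was also called higher at a log2 fold change of 0.90. The pseudogene Hist1h2al had 0.149 in each low-MYC library and 0.187 and 0.383 in the high-MYC libraries, and its log2 fold change of 0.58 did not pass the test (adjusted p = 0.0591 from limma). The groups of Hist1h2al did not overlap, but its high-MYC replicates lay further apart than the group means.

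Hist1h2bc, an H2B gene at chr13:23684199-23692908 (plus strand), had the largest fold change of the tested members. It measured 1.05 and 1.09 in low-MYC and 3.41 and 3.48 in high-MYC libraries. The difference was many times the spread of either pair of replicates, with a log2 fold change of 1.60 (SE 0.0450, adjusted p = 1.04e-05 in limma) and a ratio of means of 3.23 (counting interval 2.89 to 3.6). Of all genes tested, 98.4% had a lower log2 fold change. Relative to the median gene the log2 fold change was 0.49 (SE 0.0332, adjusted p = 0.00719 in limma), and with any library left out it lay between 0.46 and 0.51 but no longer passed the adjusted p.

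Other H2B genes were less certain. Hist1h2bq had 0.322 and 0.288 in low-MYC and 1.15 and 0.807 in high-MYC libraries, a log2 fold change of 1.40, and Hist1h2br had 0.0400 and 0.124 against 0.307 and 0.40, a log2 fold change of 1.35. Both were called higher on the spike-in scale and neither relative to the median gene. Their starts lie in copied sequence of the reference genome, as described with the chromatin data. Hist1h2bg was higher in both high-MYC libraries, with 0.631 and 0.291 against 0.135 and 0.176, but these replicates differed too much for the adjusted p to pass (0.0146 from limma, log2 fold change 1.07).

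For Hist1h2bl a single library decided the value. It had 0.0884 and 0.0286 in the low-MYC libraries and 0.305 in high-MYC replicate 1, and was listed at effectively 0 in the second high-MYC library. The log2 fold change was 0.37 (SE 0.653, adjusted p = 0.596 in limma), 1.38 with that library left out and -0.64 with the other high-MYC library left out. Hist2h2bb, under the minimum, had the same form, with 0.0721 and 0.0543 in low-MYC, 0.139 in high-MYC replicate 1 and effectively 0 in the second high-MYC library. Hist1h2bb, with 0.0695 and 0.0954 against 0.232 and 0.110, did not pass the test at a log2 fold change of 0.54. The remaining called H2B genes were Hist2h2be at 0.90 and Hist1h2bh at 0.88.

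H3 and H4 form the core tetramer of the nucleosome. Hist2h3c2, an H3 gene at chr3:96238108-96239127 (minus strand), had 0.315 and 0.321 in low-MYC and 1.11 and 1.18 in high-MYC libraries. Its replicates agreed closely and its groups were far apart, with a log2 fold change of 1.57 (SE 0.0535, adjusted p = 1.04e-05 in limma) and a ratio of means of 3.6, the counting interval of which was 2.89 to 4.42. Like those of Hist1h2bq and Hist1h2br, its start lies in copied sequence (3.30% single-copy, as described with the chromatin data). Its value and interval therefore depend on how shared reads were split. Relative to the median gene Hist2h3c2 was also higher, at a log2 fold change of 0.57 (SE 0.0282, adjusted p = 0.00391 in limma). That value ranged only from 0.57 to 0.58 with each library left out, although the call was lost in each case. Hist1h3b, with 0.213 and 0.302 against 0.602 and 0.442, and Hist1h3d, with 0.103 and 0.107 against 0.262 and 0.413, were called higher on the spike-in scale at 0.80 and 1.07. Hist1h3c, at 0.0513 and 0.0460 against 0.213 and 0.157, completed the 4 H3 genes tested, all of which were called.

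Hist1h4i, at chr13:22040636-22041362 (minus strand), was the highest H4 gene. It measured 0.902 and 1.06 in low-MYC and 2.65 and 3.23 in high-MYC libraries, so that the groups were apart by more than either spread. The log2 fold change was 1.49 (SE 0.116, adjusted p = 5.64e-05 in limma) and the ratio 2.99 (counting interval 2.57 to 3.45). Relative to the median gene its log2 fold change of 0.38 did not pass (adjusted p = 0.0796 from limma). Hist1h4h had 0.234 and 0.284 against 0.835 and 0.529, and Hist1h4n 0.128 and 0.133 against 0.469 and 0.398, and both were called higher at 1.10 and 1.21. The start of Hist1h4n also lies in copied sequence (2.89% single-copy), so its value depends on the split of shared reads. Hist1h4c, with 0.101 and 0.0670 against 0.150 and 0.120, did not overlap between groups but did not pass the test, at a log2 fold change of 0.36 (SE 0.116, adjusted p = 0.0275 in limma).

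The counting intervals were set against the median ratio of 2.26 over all genes tested. Of the 38 members with 1 annotated transcript, the interval of the ratio held 2.26 in 32, lay above it in 5 (Hist1h1c, Hist1h2bc, Hist1h2bh, Hist1h4i and Hist2h3c2) and below it in 1 (Hist1h1b). The width of an interval depends on the number of reads, and the same shares over all genes were not computed. These counts are therefore no result about the histone genes. The members on chromosome 13 fall in 2 stretches and 1 lone gene. Of 7 tested in the stretch from 21715763 to 22043676, 4 were called, with a median log2 fold change of 1.21. Of 13 tested in the stretch from 23531050 to 23764406, 9 were called, with a median of 0.90. Over all genes tested 97.1% were called higher, with a median of 1.03.

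Genes that act on histone genes or histone mRNA, and the other genes of S phase, were compared in the same fit. On the spike-in scale every tested gene of the 5 lists was called higher, beside 97.1% of all genes tested, so that these counts do not set the lists apart. For the histone variants this was 12 of 12, with a median log2 fold change of 1.15, from 0.96 for H2afy2, a macroH2A, to 1.38 for Cenpa, the H3 variant of centromeres. For 3′ processing and decay of histone mRNA it was 19 of 19, with a median of 1.08, from 0.88 for Lsm1, a decay factor, to 1.25 for Slbp. Slbp itself had 1.45 and 1.46 in low-MYC and 3.38 and 3.81 in high-MYC libraries.

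Among transcription factors and locus bodies 11 of 11 were called, with a median of 1.13, from 0.90 for Coil, the Cajal body protein coilin, to 1.44 for Ccne1, which encodes cyclin E1. Npat measured 0.570 and 0.584 in low-MYC and 1.26 and 1.35 in high-MYC libraries, a log2 fold change of 1.05. Of the chaperones and assembly factors 21 of 21 were called, with a median of 1.15, from 0.84 for Hira, a chaperone of H3.3, to 1.32 for Hjurp, the chaperone of Cenpa. The S phase list had 20 of 20 called and the highest median, 1.27, from 0.67 for Pola1 to 1.48 for Rrm2, a subunit of ribonucleotide reductase. Relative to the median gene 0 genes of the 5 lists were called in limma, and Rrm2 came nearest (log2 fold change 0.31, adjusted p = 0.0125). Summed over the list, the S phase genes had 66.5 and 67.1 in low-MYC and 166.9 and 176.1 in high-MYC libraries, a ratio of 2.57, which was also the ratio of the histone genes. Hist1h1c alone made up 46.5% of the sum of the histone genes. The ratios of the other lists were 2.26 for variants, 2.22 for 3′ processing and decay, 2.46 for transcription factors and locus bodies and 2.29 for chaperones. These ratios are given without a test.

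Cell type markers were checked beside these results. The 10 fibroblast markers summed to 333.6 and 338.7 in low-MYC and 801.5 and 818.2 in high-MYC libraries. The 15 macrophage markers summed to 0.947 and 1.30 in low-MYC and 29.9 and 31.2 in high-MYC libraries, led by Cd68 in low-MYC (0.549 and 0.661) and by Lyz2 in high-MYC cells (18.0 and 18.9), and 9 of the 10 that were tested were called higher relative to the median gene; C1qa, Tyrobp and Adgre1 were listed at 0 in low-MYC replicate 1. The endothelial list summed to at most 0.303 and the epithelial list to at most 0.0651 in any library. The part of macrophage RNA in the histone values was not tested.

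The chromatin table lists 4881417 TACh reads with a mapping quality between 11 and 42, and it does not name the library of any read, so WT and KOKD MEFs cannot be told apart in it. The name of the table points to WT cells and to peaks, although the descriptions of all 4 TACh samples name it. Reads with a 5′ end within 500 bp of the annotated start were counted. Each histone gene had either 0 reads or at least 41. Whether reads outside called peaks had been left out was not tested, so 0 reads here may stand for no called peak. Of the 41 histone genes, 33 (80.5%) had reads, with a median of 94 among these. For comparison, 67.8% of 14985 other protein-coding genes had reads, with a median of 116 among these. The shares differed most at low RNA levels, where 15 of the 17 histone genes under the minimum of 0.1 (88.2%) had TACh reads, beside 32.7% of 4814 other protein-coding genes under it. Between 0.1 and 1 the shares were 70.0% of 20 histone genes and 78.8% of 5065 others. All 4 histone genes with a mean of at least 1 had reads, as did 89.9% of 5106 others. These shares are given without a test, and the RNA levels are those that the poly(A) kit retains.

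**Figure D4:**
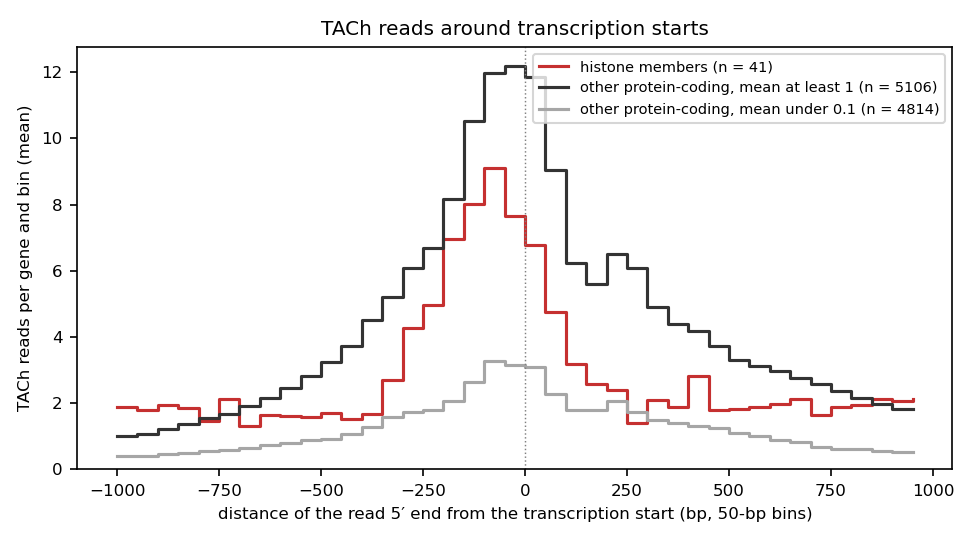
Mean number of TACh read 5′ ends per gene in 50-bp bins from 1000 bp before to 1000 bp after the annotated start, for the 41 histone genes and for other protein-coding genes with a mean of at least 1 or under 0.1. The histone genes peak at 9.10 reads in the bin from 100 to 50 bp before the start, between the 12 and 3.27 reads of the other sets in that bin, and the peak lies mostly before the start.

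The reads were gathered near the starts. Of those within 1000 bp of a start, 49.1% lay within 250 bp at the histone genes and 50.3% at other protein-coding genes with a mean of at least 1. Hist3h2a had the most reads, 156, followed by Hist1h2bg with 150 and Hist1h2bm with 145. By class, among members with reads, the H1 genes had 41 to 63 and the H3 genes 43 to 92, below the 85 to 150 of the H2B genes for all but Hist1h3f. The H2A genes had 80 to 156 and the H4 genes 45 to 126. The windows of some members overlap and share reads: the 41 windows formed 38 separate stretches, 3 of which held 2 members. The starts of Hist1h2ae and Hist1h2bg are 176 bp apart and those of Hist1h2ac and Hist1h2bc 251 bp apart. Across the 33 members with reads, Spearman's rho between read number and RNA level was 0.0893, given as a description since these genes share windows and clusters.

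The 8 histone genes with 0 reads were Hist1h1d, Hist1h2ab, Hist1h2al, Hist1h2bq, Hist1h2br, Hist1h3b, Hist1h4n and Hist2h3c2. How much of each window is single-copy was measured as the share of its 32-base words found at only 1 place in the reference genome. It was 0% at Hist1h2bq and Hist1h2br, 2.89% at Hist1h4n and 3.30% at Hist2h3c2, and between 37.9% and 100% at the 33 members with reads. The other 4 without reads had shares within that range, with 43.7% at Hist1h2al, 63% at Hist1h3b, 71.4% at Hist1h2ab and 100% at Hist1h1d. For Hist1h1d, GENCODE places the start 1770 bp from that of RefSeq, and at the RefSeq start 49 reads were found. Hist1h2ab and Hist1h3b are neighbours, with starts 1141 bp apart, and had 0 reads at either start. Which part uniqueness plays in the counts was not tested beyond these values.

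**Figure D5:**
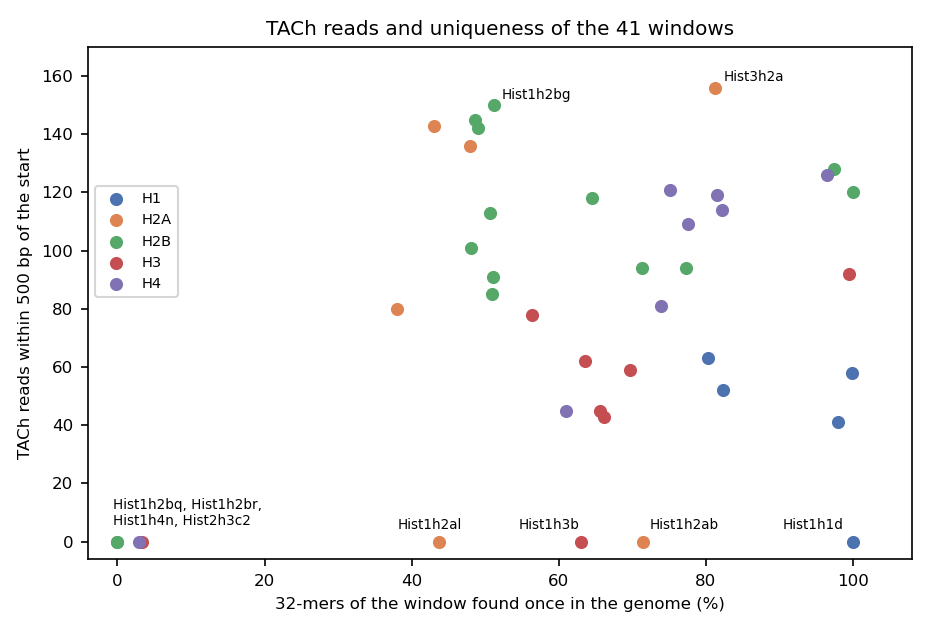
TACh reads within 500 bp of the start against the share of 32-base words of the same window that occur at 1 place in the genome, for the 41 histone genes by class. Of the 8 genes without reads, 4 have shares of at most 3.30%, and the other 4 lie within the range of the genes with reads, which starts at 37.9%.

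Promoters were taken from RefSeq (GRCm38.p6), where all 41 genes were matched by symbol or synonym and 35 had a sequence. Of these, 31 (88.6%) held CCAAT, the box bound by NF-Y, within the 250 bases before and 50 after the start on either strand, beside 37.9% of 27025 promoters in all. The letters TATAAA, the form of the TATA box searched for, stood in 20 (57.1%), beside 14.2%, and the octamer ATTTGCAT, bound by POU factors, in 9 (25.7%), beside 1.75%. The TATAAA matches lay from 198 bases before the start (Hist1h2bk) to 41 bases after it (Hist1h4a). Their share thus counts letters at any distance, and other forms of the TATA box were not searched for. The E-box CACGTG, the preferred site of MYC, stood in 0 of 35, beside 7.24%. By class, CCAAT was found in all 28 promoters of H1, H2A, H2B and H3 genes and in 3 of 7 of H4. The octamer was found in 4 of 5 H2A and 5 of 12 H2B promoters and in 0 of the 18 of H1, H3 and H4. A match here describes letters and not binding, and matches within the same promoter shared letters in 0 of the 35. Different promoters can hold the same match. The promoters of Hist1h2ae and Hist1h2bg overlap and hold the same octamer and TATAAA matches. Those of Hist1h2bq and Hist1h2br have the same 250 bases before the start. The counts are therefore of promoters and not of separate sites. CACGTG reads the same on both strands.

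The 250 bases before the start are shown for the highest members of 4 classes that had a promoter sequence, since these genes carry the largest share of each class sum; that of Hist1h2bc is not among them. Capitals mark the CCAAT motif, the TATAAA motif and the octamer on either strand.
Hist1h1c: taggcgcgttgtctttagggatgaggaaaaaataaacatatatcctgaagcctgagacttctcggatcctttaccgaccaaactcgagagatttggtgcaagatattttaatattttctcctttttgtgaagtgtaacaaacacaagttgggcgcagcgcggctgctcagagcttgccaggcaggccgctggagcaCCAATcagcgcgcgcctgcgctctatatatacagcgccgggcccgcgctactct
Hist3h2a: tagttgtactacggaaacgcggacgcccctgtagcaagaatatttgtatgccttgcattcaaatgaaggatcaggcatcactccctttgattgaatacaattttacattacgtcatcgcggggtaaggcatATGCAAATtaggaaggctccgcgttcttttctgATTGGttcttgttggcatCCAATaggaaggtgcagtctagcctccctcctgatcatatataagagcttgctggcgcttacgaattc
Hist2h3c2: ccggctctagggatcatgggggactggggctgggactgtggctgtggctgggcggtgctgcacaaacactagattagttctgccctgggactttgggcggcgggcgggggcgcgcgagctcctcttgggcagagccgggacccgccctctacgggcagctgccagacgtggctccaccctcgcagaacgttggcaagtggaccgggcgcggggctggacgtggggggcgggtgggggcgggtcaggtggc
Hist1h4i: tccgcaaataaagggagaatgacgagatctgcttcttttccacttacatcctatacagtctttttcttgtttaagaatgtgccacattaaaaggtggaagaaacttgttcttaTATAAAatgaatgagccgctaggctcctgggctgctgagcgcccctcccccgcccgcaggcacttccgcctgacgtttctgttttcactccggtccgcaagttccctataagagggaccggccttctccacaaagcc

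These lie at chr13:23738557-23738806 (plus strand), chr11:58954435-58954684 (plus), chr3:96239128-96239377 (minus) and chr13:22041363-22041612 (minus), directly before the RefSeq start. Hist1h1c had CCAAT 54 bases before its start and no TATAAA. Hist3h2a had CCAAT at 86 and 68 bases and the octamer at 119 bases before the start. Hist1h4i held TATAAA 137 bases before its start, while Hist2h3c2, the member called with the largest fold change relative to the median gene, held none of the 4 motifs in the stretch shown, and its CCAAT match lies 14 bases after the start. The GC content of the Hist2h3c2 promoter was 72.7%, beside a median of 45.3% over the 35 histone promoters and 52.7% over all promoters. TACh reads were counted at Hist3h2a (156), Hist1h4i (81) and Hist1h1c (52), and 0 at Hist2h3c2, the window of which is almost wholly copied sequence.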

How the data were processed

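The RNA table holds signal values that the authors made by trimming reads, aligning them to the mm10 transcriptome with TopHat, quantifying them with the expectation-maximization method of Partek, and scaling them by transcript length and by the geometric mean of ERCC spike-in RNAs. The deposited TACh table gives read positions from Bowtie2 on mm10 with a mapping score per read and has no column that names a library. Versions of these tools are not given in the sources used here.

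From these, limma 3.58.1 (R 4.3.3, eBayes with trend) compared log2(normalized FPK + 0.1) where the mean reached 0.1, once on the spike-in scale and once with equal medians. Tested on simulated data, the fit recovered 200 of 200 changed genes among 11870, with 3 false calls. Those genes were changed at least 2-fold, with noise drawn from the spread of the low-MYC libraries. The simulation does not measure errors where nearly all genes shift, folds are smaller, or high-MYC replicates vary more. Annotation was GENCODE M21, and sequences came from RefSeq GRCm38.p6. The remaining steps used Python 3.11.15 with numpy 2.4.6, pandas 2.3.3, matplotlib 3.10.9 and scipy 1.17.1.

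Named in full were the 3 highest members per class, the 5 largest and 5 smallest fold changes, members called relative to the median gene, members with most or fewest TACh reads, and the extremes of each list with Slbp and Npat. Members and lists were chosen with earlier results of these data known. Alternatives covered the pseudocount, filter, trend, threshold, scaling, replicates, read window, start and hairpin window. Fits that leave out a library assume that the lone library varies like the others.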

Additional observations from a re-analysis of the deposited data

How the results depend on the processing

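The number of histone genes called on the spike-in scale, 16, stayed within 1.5 times under pseudocounts of 0.01 and 1, no filter, no trend, a threshold of 0.05 and the replicate block, and was 19 to 22 without each library in turn, beside 97.6% to 99.0% of all genes; 1 of the 19 without high-MYC replicate 2 was lower (Hist1h1b). Without the filter the number called was 17, but of 41 histone genes tested in place of 24, beside 14240 of 19769 genes. A similar number is therefore not a similar share there. The number called was 4 with a minimum mean of 1, which leaves only 4 to test (5599 of 5608 genes called). It was 2 with libraries scaled to the same total (270 of 11870 genes called) or the same median (272 of 11870). The 2 calls relative to the median gene became 1 with a minimum mean of 1 (6.78% of all genes called), 0 without the filter (0.319%), and 0 without each library in turn (0% to 0.0842%). With the replicate block, which the labels' numbers do not justify (the replicates' deviations correlate at 0.081 over 2 pairs), 0 of these 2 were called, as were 0 of all genes, and the spike-in count was 17. The cause of these losses was not tested.

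With equal medians the sum ratios were 1.06 (H1), 1.01 (H2A), 1.34 (H2B), 1.33 (H3), 1.24 (H4), 1.14 (all), 1.29 (chromosome 3), 1.03 (chromosome 11) and 1.14 (chromosome 13), and each of the 5 lists had 0 calls. Without the highest members H1 was 1.96 and chromosome 3 2.06, and chromosome 11 has no value. Left-out libraries gave 2.35 to 2.44 (H1), 2.14 to 2.45 (H2A), 2.89 to 3.17 (H2B), 2.58 to 3.07 (H4) and 2.48 to 2.68 (all).

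With equal medians, a scaling that moves many genes below 0 by construction, 7 of the 24 histone genes tested, 29 of the 83 list genes and 51.5% of all genes had negative log2 fold changes. Of the histone and list genes among these, Hist1h3b and all 29 list genes had been called higher. Hist1h4a was at -0.078, and of the genes named by rule the values were -0.57 (Hist1h1b), -0.20 (Hist1h2al), -0.084 (Hist1h2bb), -0.057 (Hist1h2bl), -0.12 (Hist1h3b), -0.25 (Hist1h4c), -0.0061 (Coil), -0.028 (Hira), -0.15 (Lsm1) and -0.0022 (Npat). With equal totals they were -0.57, -0.19, -0.076, -0.053, -0.11 and -0.24 for the same 6 histone genes. Without each library Hist1h1b ranged from -0.33 (without high-MYC replicate 2) to 0.42 and was -0.016 without low-MYC replicate 2, and Hist1h2bl ranged from -0.64 (without high-MYC replicate 1) to 1.38. With a pseudocount of 0.01 Hist1h2bl was -0.14. The count of members with TACh reads and of hairpins stayed within 1.5 times under all alternatives, including the RefSeq start, an alternative chosen after seeing the data (29 of 35). What part depth plays in the calls of the lowest members was not tested.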

Other observations

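Some members under the minimum for testing had large ratios that rest on few reads. Hist1h2bm, an H2B gene, had 0.0083 and 0.0167 in low-MYC and 0.0746 and 0.106 in high-MYC libraries, a ratio of 7.20 with a counting interval of 1.79 to 41.1, from about 3.01 and 8.99 reads per group. Hist1h4d, an H4 gene, had a ratio of 6.15 with an interval of 2.07 to 22.2, from about 5.0 and 13 reads. Over the 17 members under the minimum the median ratio was 2.30, beside 2.40 over all 7899 genes under it. Hist1h2ab was the only member whose low-MYC mean exceeded its high-MYC mean, at a ratio of 0.886 (counting interval 0.240 to 2.50), and it had 0 TACh reads within 500 bp of its start.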
